A study of Mus musculus with 5 samples.

Results

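MHC class II-rich myeloid cells of mouse bone marrow (BM) are described here, as single cells of 3 whole BM libraries that carried many transcripts of MHC class II genes together with the myeloid lysozyme gene Lyz2. A cell belonged to this population if it held at least 10 unique molecular identifiers (UMIs, the count of captured RNA molecules) of H2-Aa, H2-Ab1 and H2-Eb1 together and at least 5 UMIs of Lyz2. It also had to hold no UMI of the B cell gene Cd79a, under 3 UMIs of the plasmacytoid gene Siglech and under 5 UMIs of the macrophage genes C1qa, C1qb and C1qc together. In all, 121 of 21520 kept cells (0.562%) met these limits, out of 25975 kept cells when 2 libraries of sorted monocytes were counted as well. The cells were thus chosen by their measured UMIs of H2-Aa, H2-Ab1, H2-Eb1, Lyz2, Cd79a, Siglech and the C1q genes, and the levels of these genes are given as a description only.

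The naive library came from untreated BALB/c mice of 4 to 8 weeks, and the D2 CTX and D7 CTX libraries from mice that received 150 mg/kg of the alkylating agent cyclophosphamide (CTX) into the peritoneum 2 or 7 days earlier. Each whole BM library was 1 pool of equal cell numbers from 3 mice after removal of dead cells, so the mice cannot be told apart. Sorted CD11b+Ly6Chi monocytes, in 1 library from naive and 1 from CTX-treated BM, served as a comparison. Their labels give no day, and the paper places the treated mice at 7 days after CTX. With 1 library per condition no test between conditions was possible, no p-value is given, and all intervals are exact 95% intervals that cover counting error only.

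MHC class II molecules present peptides to CD4+ T cells. An alpha and a beta chain, encoded by genes such as H2-Aa, H2-Ab1 and H2-Eb1, assemble on the invariant chain Cd74, which cathepsin S (Ctss) and other proteases later cut to free the groove. Conventional dendritic cells (cDCs) carry class II constantly, while monocytes gain it under some conditions. The cDC1 subset depends on Irf8, Id2 and Batf3 and carries Clec9a and Xcr1, and the cDC2 subset carries genes such as Clec10a and Cd209a. Classical monocytes carry Ly6c2 and Ccr2, and nonclassical monocytes carry Cx3cr1, Adgre4, Treml4 and Ace. Which of the 121 cells were monocytes and which cDCs was the question put to the data.

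The class II genes that define the population lie together on chromosome 17, and their promoters share a short control region whose Y box is the letters CCAAT or, on the other strand, ATTGG. RefSeq promoter windows were at hand for 2 of the 3 genes (GRCm38.p6, from the C57BL/6 reference and not from the BALB/c mice of the study), and H2-Ab1 is named only. The windows below, printed 5′ to 3′ on the gene's strand with ATTGG in capitals, are shown because the 3 genes chose the cells together.
H2-Aa, chr17:34287852-34287916, minus strand: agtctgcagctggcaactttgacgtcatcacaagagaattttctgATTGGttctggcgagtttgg
H2-Eb1, chr17:34305763-34305827, plus strand: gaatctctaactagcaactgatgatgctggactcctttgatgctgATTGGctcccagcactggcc
The capitals began 48 bases before the gene start in H2-Aa and 59 bases before it in H2-Eb1. H2-Eb1 also held CCAAT beginning 35 bases before its start. CCAAT on either strand occurred in 12289 of 32851 promoters of 300 bases (37.4%), so these letters alone do not set the class II genes apart.

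Sequencing gave 47086837 UMIs over 7649 barcodes in the naive library, 34764874 UMIs over 6608 barcodes on day 2 and 68459527 UMIs over 8605 barcodes on day 7. Cells with at least 200 genes and under 20% mitochondrial UMIs were kept, which left 7104 naive cells, 6126 cells on day 2 and 8290 on day 7. The median depth of a kept cell was 3953.5 UMIs (naive), 3033.5 UMIs (day 2) and 7189.5 UMIs (day 7). The class II-rich cells were closer in depth, with medians of 6573.5, 6588 and 7270.5 UMIs and a range of 1161 to 22441. Pairs of libraries shared between 2 and 16 barcodes, and none of these was a class II-rich cell in both.

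The naive library had 42 class II-rich myeloid cells, the D2 CTX library 47 and the D7 CTX library 32. They made up 0.591% of kept cells in naive BM (interval 0.426 to 0.798), 0.767% in D2 CTX BM (0.564 to 1.02) and 0.386% in D7 CTX BM (0.264 to 0.544). The share was above naive by a log2 ratio of 0.38 on day 2 (-0.26 to 1.01) and below it on day 7 (-0.62, -1.33 to 0.08), and both intervals include 0. Between the treated libraries the ratio of D7 over D2 was -0.99 on the log2 scale (-1.69 to -0.31). The makeup of the libraries moved with these shares: cells with at least 5 Lyz2 UMIs and no Cd79a UMI were 48.8% of kept cells in naive BM, 39.6% on day 2 and 89.8% on day 7. Over such cells the class II-rich share was 1.21%, 1.94% and 0.430%, a log2 ratio to naive of 0.68 on day 2 (0.05 to 1.31) and -1.50 on day 7 (-2.21 to -0.80).

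Cells also lay close to the limits. With the other limits met, 8 cells held 10 to 14 class II UMIs (3 naive, 3 D2 CTX, 2 D7 CTX) and 12 cells just outside held 5 to 9 (4 naive, 2 D2 CTX, 6 D7 CTX). For Lyz2, 9 cells held 5 or 6 UMIs and 11 cells just outside held 3 or 4. In all, 62 class II-rich cells missed only the Lyz2 limit, of which 29 had no Lyz2 UMI, 12 carried Clec9a, 12 carried Cd209a and 27 carried the cDC cytokine receptor gene Flt3. The limits on other genes kept out 44 cells for Cd79a, 10 for Siglech and 11 for the C1q genes. Of the cells that met every limit but that for Lyz2, 31 of 43 with Clec9a and 30 of 42 with Cd209a held at least 5 Lyz2 UMIs.

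**Figure D1:**
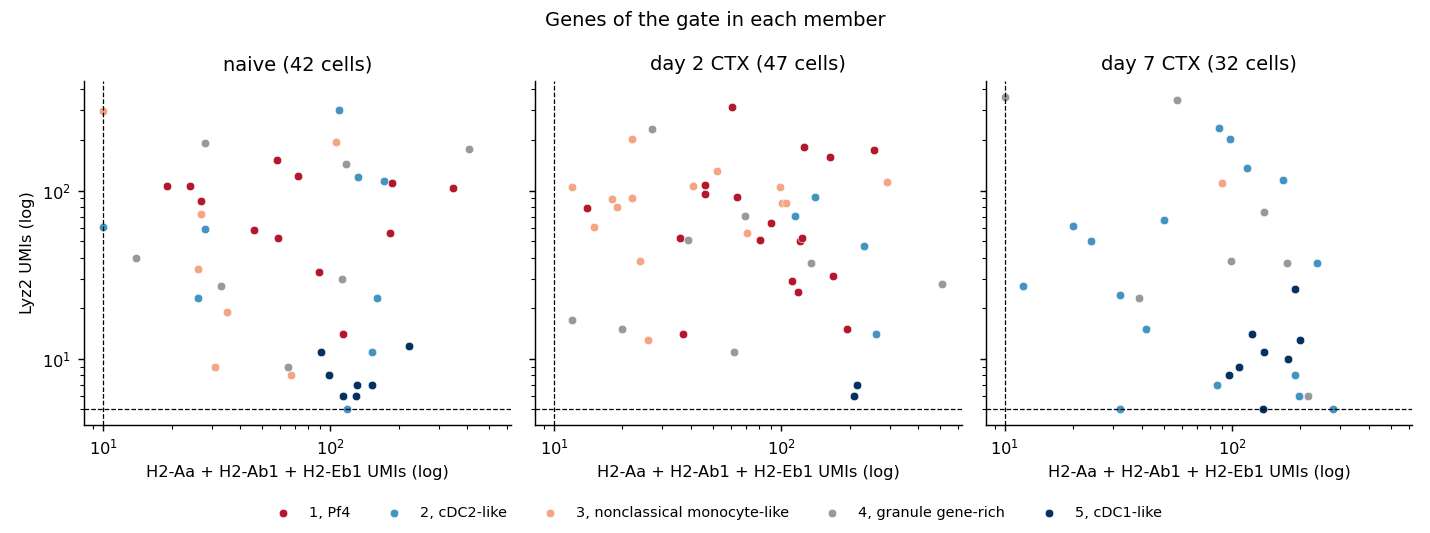
Lyz2 UMIs (log axis) against H2-Aa + H2-Ab1 + H2-Eb1 UMIs (log axis) in each class II-rich myeloid cell, 1 panel per library, coloured by cluster, with dashed lines at the limits of 5 and 10 UMIs. The 17 cells of the cDC1-like cluster lie close to the Lyz2 limit, between 5 and 26 Lyz2 UMIs, while the other clusters spread upward.

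Lyz2 is abundant in BM, and free RNA can place it in droplets of other cells. In B lineage cells (at least 3 Cd79a UMIs; 1949 naive, 1607 D2 CTX and 211 D7 CTX cells with medians of 3012, 2653 and 8782 UMIs) at least 5 Lyz2 UMIs occurred in 5.75%, 7.59% and 11.8%. In plasmacytoid cells (138, 200 and 133 cells with medians of 5967.5, 6240 and 6455 UMIs) they occurred in 2.17%, 11.5% and 21.8%. Lyz2 passing its limit was thus no proof of its expression in a cell. The ratio of Lyz2 to S100a8, an abundant neutrophil gene, gives a second measure, because 1 source of free RNA keeps the ratio of its genes. It was 0.0831, 0.0549 and 0.0903 Lyz2 UMIs per S100a8 UMI in B lineage cells of the 3 libraries and 0.0485, 0.0368 and 0.0993 in plasmacytoid cells. With the libraries pooled, the class II-rich cells of 4 of the 5 clusters described next held between 1.51 and 13.7. The lowest of these, the cDC1-like cluster, held 0.448 in its 2 D2 CTX cells. The Lyz2 limit chose all class II-rich cells and so raises their ratio. How much of the Lyz2 of a single class II-rich cell was free RNA was not tested.

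The 121 cells fell into 5 clusters by their own transcripts. Of these, 3 are called after the cell type whose markers stood among their 10 leading genes. The other 2 are called by their leading genes, although these also held markers of a cell type. Cluster 1 (30 cells) was led by Pf4, Ms4a7, Axl, Isg15, Zbp1 and Maf, held 1 macrophage marker and no monocyte or cDC marker among its 10 leading genes, and is called the Pf4 cluster. Pf4, a platelet chemokine gene also found in some macrophages, rested on 6 of its 30 cells, and all naive class II-rich cells together held 1 Pf4 UMI. At resolution 1.2 a cluster of 19 cells led by AW112010, Zbp1 and Irf7 and a cluster of 11 cells led by Pf4, Cxcl16 and Ms4a7 stood apart, so the name stands for the leading gene and not for every cell. Cluster 3 (23 cells) was led by Lyz1, Gngt2, Adgre4, Ccl4, Hmox1, Fcgr4 and Nr4a1 and is called nonclassical monocyte-like. The name rests on Adgre4 and Nr4a1 only, and Nr4a1 is also an immediate early gene. Cluster 2 (29 cells) was led by Cd209a, Tnip3, Fn1 and Clec10a, 3 cDC2 markers and 1 monocyte marker, and is called cDC2-like. Cluster 5 (17 cells) was led by Clec9a, Id2, Rab7b, Wdfy4 and Irf8 and is called cDC1-like. Cluster 4 (22 cells) was led by Ngp, Camp, Mmp9, Ly6g and Ltf, genes of neutrophil granules and neutrophils, and is called the granule gene-rich cluster. Its 10 leading genes also held Lcn2, S100a8 and S100a9, so the neutrophil list was matched by more genes than the name says. Clustering used the same genes that describe the clusters, so levels between clusters carry no test.

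Levels below are UMIs of a gene summed over the cells of a cluster, given as counts per 1000000 UMIs of these cells (CPM). Unless a library is named, they pool the libraries, which fill the clusters unequally. Genes of monocytes were high in the Pf4 and nonclassical monocyte-like clusters. Csf1r, the receptor for the monocyte growth factor CSF1, stood at 595 CPM (480 to 729) in the Pf4 cluster and 609 CPM (475 to 769) in the nonclassical monocyte-like cluster. It stood at 211 CPM (154 to 281) in the cDC2-like and 14 CPM in the cDC1-like cluster, where 2 of 17 cells carried it. Fcgr1, which encodes the high affinity IgG receptor, stood at 314 CPM in the Pf4 cluster, 183 CPM in the nonclassical monocyte-like cluster, 55 CPM in the cDC2-like cluster and 0 CPM in the cDC1-like cluster. Ly6c2, the gene of the classical monocyte antigen Ly6C, differed between these pooled clusters: it reached 730 CPM (602 to 877) in the Pf4 cluster and 200 CPM (127 to 300) in the nonclassical monocyte-like cluster. Adgre4 had the reverse order, with 154 CPM (98 to 229) against 470 CPM (353 to 613). Outside the granule gene-rich cluster, Ly6c2 stood at 614 CPM in naive and 157 CPM on day 2, and Adgre4 at 46.9 and 283 CPM. The order of the 2 clusters within a library was not tested. Treml4 (51 and 104 CPM) and Ace (19 and 113 CPM) were low in both, and Cx3cr1 stood at 371 and 487 CPM.

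Among genes of cDCs, the cDC1 list was highest in cluster 5 (2153 CPM, against 148 to 753 CPM) and the cDC2 list in cluster 2 (1978 CPM, against 125 to 1018 CPM), although Sirpa, a cDC2 list gene that monocytes share, was highest in clusters 1 and 3 (614 and 522 CPM, against 197 CPM in cluster 2). Clec9a, a receptor for dead cells, stood at 222 CPM (152 to 314) in the cDC1-like cluster, in 16 of 17 cells, and at 46 CPM (22 to 84) in the cDC2-like cluster. It was at 0 in both clusters rich in monocyte genes. Xcr1, the cDC1 chemokine receptor gene, stood at 104 CPM in the cDC1-like cluster but in 5 of 17 cells, and at 0 in clusters 1, 2 and 3. Irf8, needed for cDC1 development, stood at 2251 CPM there against 320 to 375 CPM in clusters 1, 2 and 3, and Id2 at 1556 CPM against 115 to 217 CPM. Flt3, the receptor for the cDC growth factor FLT3 ligand, stood at 118 CPM in the cDC1-like, 101 CPM in the cDC2-like, 26 CPM in the Pf4 and 0 CPM in the nonclassical monocyte-like cluster. Zbtb46, a transcription factor of committed cDCs, was scarce: 23 CPM in the cDC2-like cluster, 21 CPM in the cDC1-like cluster and 0 in clusters 1 and 3.

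The cDC2-like cluster held transcripts of both kinds. Cd209a stood at 787 CPM (674 to 914) in 20 of its 29 cells, against 51 CPM in the Pf4 and 43 CPM in the nonclassical monocyte-like cluster. Clec10a (197 CPM), Mgl2 (142 CPM) and Cd209d (133 CPM), which encode lectins, were also highest there among the 5 clusters. The monocyte list of 10 genes summed to 4793 CPM in the cDC2-like cluster, between 7252 CPM in the Pf4 and 1827 CPM in the cDC1-like cluster. Most of this came from genes that dendritic cells can share, with Ccr2 at 1781 CPM and Ms4a6c at 1273 CPM, but Csf1r, F13a1 (430 CPM) and Fn1 (444 CPM) were present as well. Its cDC list summed to 1089 CPM, against 531 CPM in the Pf4, 705 CPM in the nonclassical monocyte-like and 2098 CPM in the cDC1-like cluster. Ccr2, which draws monocytes out of the BM, was no divider: it stood at 1920, 1781, 2531 and 1278 CPM in clusters 1, 2, 3 and 5. This classical monocyte gene was thus highest in the nonclassical monocyte-like cluster, against the name of that cluster.

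**Figure D2:**
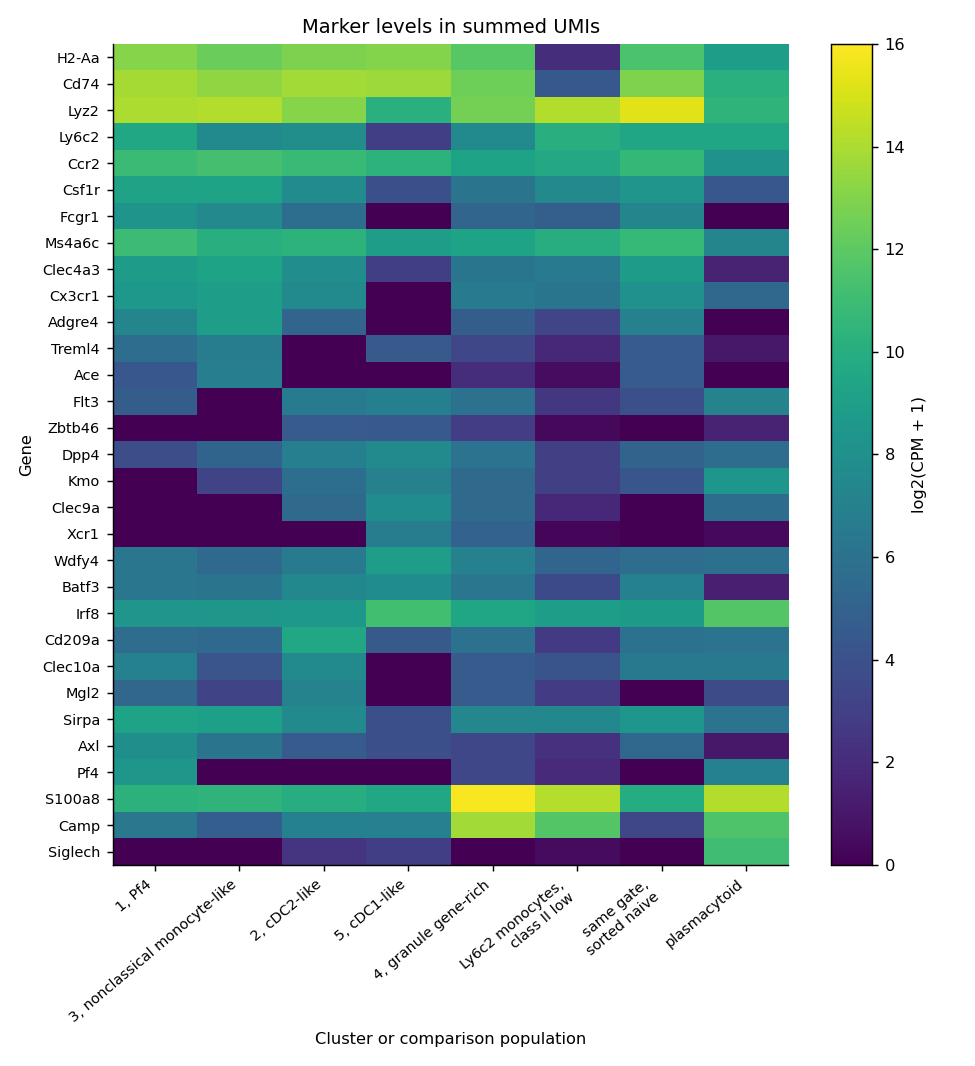
Levels of 31 genes (rows) as log2(CPM + 1) of summed UMIs, by colour, in the 5 clusters and in 3 comparison populations (columns). Fcgr1 and Csf1r are high in clusters 1 and 3, Cd209a in cluster 2, Clec9a, Xcr1 and Irf8 in cluster 5, and S100a8 and Camp in cluster 4.

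Cell by cell, monocyte list UMIs outnumbered cDC list UMIs in nearly every cell of the first 3 clusters. cDC list UMIs were the greater number in 0 of 30, 0 of 29 and 0 of 23 cells of clusters 1, 2 and 3, in 7 of 17 cells of the cDC1-like cluster and in 7 of 22 cells of the granule gene-rich cluster. The medians were 39 monocyte and 2 cDC UMIs in the Pf4 cluster, 32 and 7 in the cDC2-like cluster, 33 and 3 in the nonclassical monocyte-like cluster and 17 and 16 in the cDC1-like cluster. By library the cDC list was ahead in 5 of 42 naive cells, in 4 of 47 on day 2 and in 5 of 32 on day 7. With each cell thinned to 2000 UMIs and 4 shallower cells left out, it was ahead in 5 of 39, 2 of 46 and 5 of 32. The cDC list reaches a median of 1 to 2 UMIs in B lineage cells, where the monocyte list has a median of 0. It includes H2-DMb2, a gene of the class II pathway. At least 10 UMIs of the 3 class II genes occurred in 18.7%, 21.2% and 10.4% of B lineage cells of the 3 libraries. That median is thus no measure of free RNA. The source of counts this low, as in the Pf4 cluster, was not tested. The lists hold genes of unequal abundance, so the line where their UMIs are equal is no boundary between cell types.

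**Figure D3:**
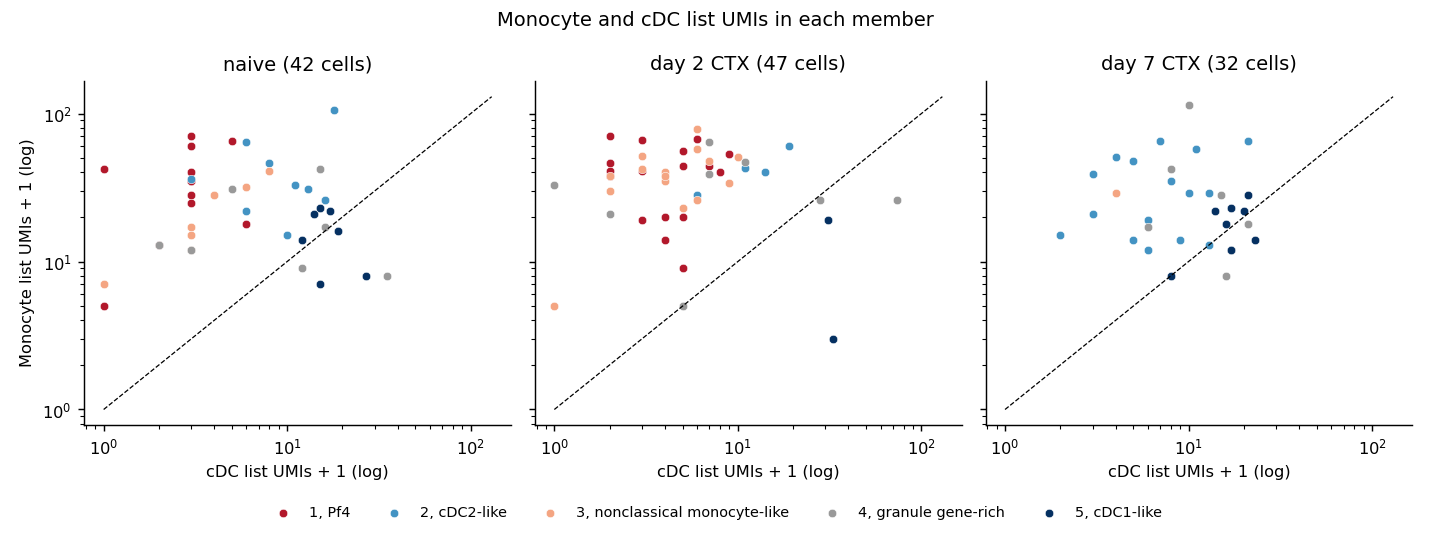
UMIs of the 10 monocyte list genes against UMIs of the 10 cDC list genes in each class II-rich myeloid cell, both plus 1 and on log axes, 1 panel per library, with a dashed line where they are equal. Cells of the Pf4, nonclassical monocyte-like and cDC2-like clusters lie on or above the line, and of the 17 cDC1-like cells 9 lie above, 1 on and 7 below it.

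The granule gene-rich cluster stood apart. S100a8 reached 59505 CPM there, against 764 to 1340 CPM in the other clusters, and the neutrophil list of 10 genes summed to 155964 CPM. Its cells were deep, with a median of 14102 UMIs against 4964 to 8135 in the others, and 4 of the 6 class II-rich cells called doublets were in it. The neutrophil list took a median of 14.6% of the UMIs of a cell (0.0476 to 36.0), above 5% in 16 of 22 cells. The highest cell outside the cluster was at 1.67%. The other cells of the cluster were low in this list. Examples are a D2 CTX cell at 0.0917% with 73 cDC and 25 monocyte UMIs, and a D7 CTX cell at 0.125% with 9 and 114. Values without this cluster leave out such cells as well. With cycling genes out of the variable genes, a cluster of 19 cells was led by Ngp and a cluster of 20 cells by Clec9a. Lyz2 per S100a8 UMI was 0.107 in the granule gene-rich cluster. In S100a8-high cells (at least 100 UMIs) of naive, D2 CTX and D7 CTX BM it was 0.0531, 0.0407 and 0.0771. Such S100a8-high cells held at least 10 class II UMIs in 0.164%, 0.427% and 0.164%. The cluster also held cycling genes (2347 CPM over 10 genes, against 61 to 174 CPM elsewhere). Whether these are single cells or pairs of cells in 1 droplet was not tested beyond the doublet calls. The doublet calls were uneven, falling on 1 of 42 cells in naive BM, 0 of 47 on day 2 and 5 of 32 on day 7, the last being 15.6% against 7.07% of all kept cells of that library. Of all kept cells, 1.73% were called in naive BM and 3.98% on day 2. Calls on day 7 followed another rule, so the numbers of the libraries cannot be compared directly. Of the 4 doublets in this cluster, 3 were D7 CTX cells.

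Class II genes themselves were carried by all clusters. H2-Aa stood at 8903 CPM in the Pf4, 7489 CPM in the cDC2-like, 5132 CPM in the nonclassical monocyte-like, 3647 CPM in the granule gene-rich and 8447 CPM in the cDC1-like cluster. The median cell held 85, 115, 31, 63.5 and 137 UMIs of the 3 class II genes of the limit, in the same order. Ciita, the master regulator of class II transcription, which the limits did not use, was present in all 5, at 256, 165, 235, 103 and 243 CPM. Proteases of the pathway followed the monocyte genes instead: Ctss stood at 2151 CPM in the Pf4 and 1774 CPM in the nonclassical monocyte-like cluster, against 975 CPM in the cDC2-like and 472 CPM in the cDC1-like cluster. Lgmn, the lysosomal legumain, stood at 646, 252, 69 and 28 CPM in the same 4 clusters. Cst3, an inhibitor of cathepsins, had the reverse order, with 3706, 4419, 6084 and 18054 CPM. These levels pool the libraries, and Lgmn also differed between libraries, as given below. The order of the clusters within a library was not tested.

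Between the conditions, the division of the class II-rich cells differed. Clusters 1 and 3, rich in monocyte genes, together held 19 of 42 cells in naive BM (45.2%, 29.8 to 61.3), 33 of 47 on day 2 (70.2%, 55.1 to 82.7) and 1 of 32 on day 7 (3.13%, 0.0791 to 16.2). The cDC2-like and cDC1-like clusters together held 16 naive cells (38.1%, 23.6 to 54.4), 6 D2 CTX cells (12.8%, 4.83 to 25.7) and 24 D7 CTX cells (75.0%, 56.6 to 88.5). Per kept cell, clusters 1 and 3 were above naive on day 2 by 1.01 on the log2 scale (0.15 to 1.91) and below it on day 7 (-4.47, -9.85 to -1.82). The cDC-like pair differed from naive by -1.20 on day 2 (-2.84 to 0.23) and 0.36 on day 7 (-0.61 to 1.37), both with 0 in the interval. D7 over D2, that pair was higher by 1.56 (0.24 to 3.14). These divisions moved with the clustering. Without doublets, clusters led by monocyte, nonclassical monocyte or macrophage markers held 18.5% of the D7 CTX cells (5 of 27), and with each library centred first they held 26.2% in naive BM, 25.5% on day 2 and 0 of 32 cells on day 7. A further cluster of 9 cells led by Pf4, Ms4a7 and Marcksl1 (2 naive, 7 D2 CTX, 0 D7 CTX) had none of these markers among its 10 leading genes and is not in the latter shares. Clusters led by cDC markers held 23 naive cells, 21 D2 CTX cells (44.7%) and 26 D7 CTX cells with centring, in place of 16, 6 and 24, so that the low number on day 2 was lost. They held 46.9% of the D7 CTX cells at resolution 0.4, where no cluster was led by Clec9a. By list UMIs per cell the cDC list was ahead in 15.6% of the D7 CTX cells.

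By single cluster, the Pf4 cluster held 12 naive (28.6%), 18 D2 CTX (38.3%) and 0 of 32 D7 CTX cells, for which the exact interval ends at 10.9% and 3 cells would make 9.38%. The nonclassical monocyte-like cluster held 7 (16.7%), 15 (31.9%) and 1 (3.13%). The cDC2-like cluster held 9 (21.4%), 4 (8.51%) and 16 of 32, and the cDC1-like cluster 7 (16.7%), 2 (4.26%) and 8 (25.0%). Cells of the cDC2-like cluster held a median of 10 cDC2 list UMIs in naive BM and 30 on day 2. On day 7 the median was 7 (1 to 28), against 5 (0 to 13) in the Pf4 cluster, so not every one of these cells was rich in cDC2 genes. The granule gene-rich cluster held 7, 8 and 7 cells (16.7%, 17.0% and 21.9%), which was the most even division.

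**Figure D4:**
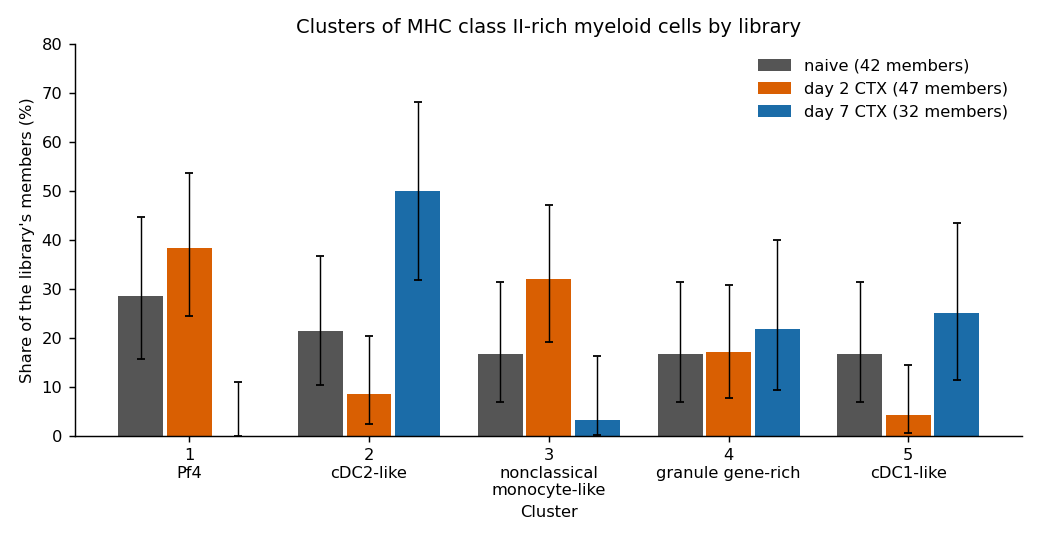
Share of the class II-rich myeloid cells of each library (%) in each of the 5 clusters, with exact 95% intervals of counting error as bars. Clusters 1 and 3 hold 0% and 3.13% of the D7 CTX cells, while cluster 2 holds 16 of these 32 cells and 8.51% of the D2 CTX cells.

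Since the clusters were built from genes that also differ between libraries, the cells were clustered again without 364 genes that were at least 1 log2 unit apart between libraries, a choice made after the data had been seen. A cluster led by Pf4, Lyz1, Maf, Axl and Apoe then took all 30 cells of the Pf4 cluster and 18 of the 23 nonclassical monocyte-like cells. Its cells were 19 from naive, 29 from D2 CTX and 2 from D7 CTX BM. A cluster led by Cd209a, Fn1 and Tnip3 held 9, 8 and 15 cells, and the granule gene-rich and cDC1-like clusters were made of the same 22 and 17 cells as before. The other 5 nonclassical monocyte-like cells moved to the cluster led by Cd209a, and 2 of the 29 cDC2-like cells moved the other way. The division between the Pf4 and nonclassical monocyte-like clusters was thus lost without these genes, and that from the cDC2-like cells was kept in part. Centring each library before clustering changed more: a cluster of 50 cells led by Cd209a, Tnip3 and Fn1, with Lyz1 and Gngt2 also among its 10 leading genes, then held 15 naive, 18 D2 CTX and 17 D7 CTX cells, and a cluster of 23 cells led by AW112010, Zbp1 and Irf7 held 11, 12 and 0.

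Gene levels over all class II-rich cells of a library do not depend on clusters. On day 2, 2051 genes passed the filter on low levels (at least 50 UMIs over both libraries and 20 CPM in 1 of them), of which 167 (8.14%) were at least 1 log2 unit above naive and 51 (2.49%) at least 1 below, with a median of 0.10 over the genes. Without the granule gene-rich cluster the shares were 7.99% above and 2.66% below, of 1426 genes. On day 7, 1625 genes passed, of which 20 (1.23%) were above and 31 (1.91%) below naive, with a median of 0.01. Without that cluster 1.42% were above and 2.56% below, of 1053 genes. Both comparisons share the naive library. In whole populations of cells, more of 1 cell type and more RNA per cell cannot be told apart, and these levels moved together with the cluster shares given above.

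On day 2, genes of the monocyte list at least 1 log2 unit above naive included Clec4a3 and Cd14, and 1 of its 10 genes (Ly6c2) was as far below. Clec4a3, a C-type lectin gene of monocytes, stood at 103 CPM in naive (70.7 to 144; 20 of 42 cells), 407 CPM on day 2 (344 to 479; 38 of 47 cells) and 131 CPM on day 7 (90.4 to 182; 15 of 32 cells). Day 2 lies above both other libraries, whose intervals overlap, and the log2 ratio to naive was 1.98 on day 2 (1.43 to 2.58) and 0.34 on day 7 (-0.39 to 1.08). Without the granule gene-rich cluster Cd14 held 11 and 30 UMIs in naive and on day 2 and did not pass the filter. Ly6c2 was highest in naive at 448 CPM, with 163 CPM on day 2 and 180 CPM on day 7, so that its log2 ratio to naive was -1.45 (-1.92 to -1.01) and -1.31 (-1.82 to -0.83). Adgre4, an adhesion receptor gene of nonclassical monocytes, stood at 37.3, 213 and 19.2 CPM, above naive by 2.48 on day 2 (1.63 to 3.53). Csf1r stood at 237, 354 and 111 CPM, with log2 ratios of 0.58 (0.16 to 1.01) and -1.08 (-1.76 to -0.45). Ccr2 was closer between libraries, at 1201, 1620 and 1493 CPM.

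The 10 genes with the largest log2 ratio to naive on day 2 were Pf4, Gngt2, Fpr2, Marcksl1, Gm10076, Msr1, Lyz1, Ccnd1, Maf and Mmp9, between 5.27 and 2.97. Pf4 held 1 UMI in naive and 57 in D2 CTX cells (3.13 to 10.99 on the log2 scale), but the 57 were spread over 6 of 47 cells, 25 of them in 1 cell. Msr1, a scavenger receptor of macrophages, was broader, with 7 UMIs in 4 naive cells and 87 UMIs in 29 D2 CTX cells (log2 ratio 3.41, 2.36 to 4.82). Maf, a transcription factor gene, held 15 UMIs in 9 naive, 138 UMIs in 28 D2 CTX and 2 UMIs in 1 D7 CTX cell. Lyz1, a lysozyme gene related to Lyz2 with which it can share reads, held 60 UMIs on day 2 in 7 cells only. Mmp9 is a neutrophil granule gene, and 8 of 47 cells held its 73 UMIs.

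The lowest on day 2 were Prtn3, Elane, Camp, Chil3 and Ngp, granule genes of neutrophils and their precursors, followed by Ramp1, Lsm7, Hmgn2, Selenoh and Serpinb1a. Camp stood at 10612 CPM in naive BM, 762 CPM on day 2 and 2614 CPM on day 7. Single cells weighed heavily here, since 186 of 209 naive UMIs of Elane and 164 of 190 of Prtn3 were in 1 cell. Of the neutrophil list, 8 genes passed the filter, with 2 above naive (Mmp8, Retnlg) and 4 below (Ltf, Lcn2, Ngp, Camp). Over the cells outside the granule gene-rich cluster, Camp stood at 42.2, 47.1 and 248 CPM, far below the levels with it. Of the neutrophil list, 3 genes passed the filter on day 2 without the cluster, and all 3 (Retnlg, S100a8 and S100a9) were above naive, so the median log2 ratio of the list turned from -0.94 to 1.25. S100a8 then stood at 614 CPM in naive (514 to 729) and 1464 CPM on day 2 (1320 to 1621). In the same libraries S100a8 stood at 9974 and 19612 CPM in B lineage cells and at 4916 and 14356 CPM in plasmacytoid cells, and the part of free RNA in these levels was not tested.

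The p53 response stops the cell cycle after DNA damage. The p53 targets list of 12 genes summed to 274 CPM in naive members, 1058 CPM on day 2 and 288 CPM on day 7, and 2 of the 3 genes that passed the filter on day 2 were above naive. Cdkn1a, the cell cycle inhibitor p21, stood at 43.6 CPM in naive (10 of 42 cells), 302 CPM in D2 CTX (31 of 47 cells) and 11.5 CPM in D7 CTX BM (2 of 32 cells), with a log2 ratio of 2.76 on day 2 (1.98 to 3.71). Ccng1, a cyclin-like target of p53, stood at 31.1, 144 and 46.1 CPM (2.17 on day 2). Mdm2, which degrades p53, did not pass the filter and stood at 15.6, 102 and 46.1 CPM. Within clusters, the p53 targets list summed to 390 CPM (242 to 597) in naive and 996 CPM (812 to 1209) in D2 CTX cells of the Pf4 cluster (cluster 1), and to 185 and 1777 CPM in the granule gene-rich cluster (cluster 4). In the cDC2-like cluster (cluster 2) it summed to 296 CPM in naive (185 to 448), 769 CPM on day 2 (519 to 1098, in 4 cells) and 266 CPM on day 7, and in the cDC1-like cluster (cluster 5) to 278, 348 (in 2 cells) and 369 CPM. In the nonclassical monocyte-like cluster (cluster 3) the naive interval (145 to 661 CPM) and that of day 2 (444 to 780 CPM) overlap. Without the granule gene-rich cluster Cdkn1a stood at 61.0 CPM in naive and 243 CPM on day 2 (log2 ratio 1.98, 1.12 to 2.99), and Ccng1 no longer passed the filter, with 7 and 23 UMIs.

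Of the chemokine and cytokine list, 6 of 14 genes passed the filter and 4 were above naive on day 2. Il1b, the gene of interleukin 1 beta, stood at 43.6 CPM in naive (9 cells), 263 CPM on day 2 (25 of 47 cells) and 0 on day 7, where a level of 11.5 CPM would be 3 UMIs. Cxcl2, which draws neutrophils, stood at 28.0, 186 and 3.84 CPM, Cxcl16 at 40.5, 161 and 7.68 CPM and Ccl4 at 40.5, 147 and 7.68 CPM. UMIs of Il1b were thus found in more cells on day 2 than in naive, and in none of the 32 D7 CTX cells. Of the chemokine receptors, Ccr1 was above naive on day 2, by 2.49 on the log2 scale, but without the granule gene-rich cluster it held 6 and 27 UMIs and did not pass the filter.

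Of the MHC class II pathway list, 17 of 19 genes were in the tables, and H2-Ea-ps and Ifi30 were not analysed here. The list summed to 26609 CPM in naive, 26798 CPM in D2 CTX and 27802 CPM in D7 CTX cells, 3 of its genes being those that chose the cells. Of 11 genes that passed the filter on day 2, 1 (Lgmn) was at least 1 log2 unit above naive and 0 below, and on day 7 it was 0 of 9 in either direction. Lgmn stood at 84.0, 357 and 53.7 CPM (log2 ratio 2.08 on day 2, 1.48 to 2.74). Cd74 stood at 10830, 10330 and 11270 CPM and Ciita at 159, 210 and 165 CPM.

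Immunoglobulin, hemoglobin, mitochondrial and ribosomal genes were counted above but ranked apart, and of these Igkc stood at -3.76 against naive on day 7 (-6.19 to -2.24). Of the 10 lowest of the other genes, 5 were again granule genes (Elane, Prtn3, Camp, Chil3 and Ngp), and others were Irf7, Apoe, Isg15 and AW112010. Camp turned to 2.52 on the log2 scale without the granule gene-rich cluster. Of the monocyte list, 8 of 10 genes passed the filter, with 0 above naive, while Csf1r and Ly6c2 were among those below. Of the interferon-stimulated list, 5 of 15 passed, with 0 above and 3 below (Irf7, Isg15 and Ly6e), and the list summed to 1553 CPM in naive, 2545 CPM in D2 CTX and 576 CPM in D7 CTX cells. Without the granule gene-rich cluster Isg15 fell just short of the 50 UMIs of the filter, with 43 UMIs in naive and 6 on day 7. It was thus lost to the filter only, and its UMIs still lay lower on day 7. Irf7, which amplifies the interferon response, stood at 246, 294 and 38.4 CPM, with a log2 ratio to naive of 0.25 on day 2 and -2.65 on day 7 (-3.79 to -1.73). In D7 CTX BM the gene was spread over 9 of 32 cells with at most 2 UMIs each. By cluster the list was highest in the Pf4 cluster, at 4922 CPM against 906 CPM in the cDC2-like and 528 CPM in the cDC1-like cluster, and the Pf4 cluster held no D7 CTX cell. Within the cDC2-like cluster (cluster 2) the interferon-stimulated list stood at 807 CPM in naive (616 to 1039), 1539 CPM on day 2 (1174 to 1981, in 4 cells) and 742 CPM on day 7 (587 to 926), so that in these cells naive and day 7 overlap and day 2 lies above both. Within the Pf4 cluster (cluster 1) it was 6040 CPM in naive and 4335 CPM on day 2. Apoe, a lipid carrier made by macrophages, stood at 1933, 2999 and 418 CPM, the last in 6 of 32 cells.

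Above naive on day 7 were BC100530, Mmp8, Retnlg, Cdkn2d, Dpp4, F630028O10Rik, Fxr1, Jun, Kctd14 and Ccl3, between 2.53 and 1.17 on the log2 scale, the highest 10 of the 20 genes. Retnlg turned to -0.91 without doublets, and 267 of its 453 UMIs on day 7 were in 1 cell. Ccl3 turned to -0.23 with the mean of the cells, and 21 of its 35 UMIs were in 1 cell. BC100530, a stefin A gene with near-identical copies that may share its reads, rested on 1 cell with 67 of 81 UMIs. Dpp4, the CD26 peptidase gene of cDC1 cells, was broader and the only one of the 4 cDC list genes past the filter to be 1 log2 unit above naive: it stood at 65.4 CPM in naive (14 of 42 cells), 44.3 CPM in D2 CTX (9 of 47) and 169 CPM in D7 CTX BM (21 of 32), a log2 ratio of 1.36 on day 7 (0.59 to 2.19). Other genes of the cDC lists did not share 1 order. Flt3 (62.2, 38.8 and 107 CPM), Clec9a (71.6, 27.7 and 88.3 CPM) and Cd209a (258, 141 and 280 CPM) were lowest on day 2 and highest on day 7, with counting intervals that overlapped between naive and day 7. Clec10a (93.4, 58.2 and 80.6 CPM) and Cd24a (305, 186 and 261 CPM) were highest in naive, and Naaa (336, 299 and 203 CPM) was lowest on day 7. Cadm1, an adhesion gene of cDC1 cells, held 5, 14 and 0 UMIs, and Sirpa, a receptor gene of cDC2 cells and monocytes, stood at 159, 476 and 115 CPM.

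**Figure D5:**
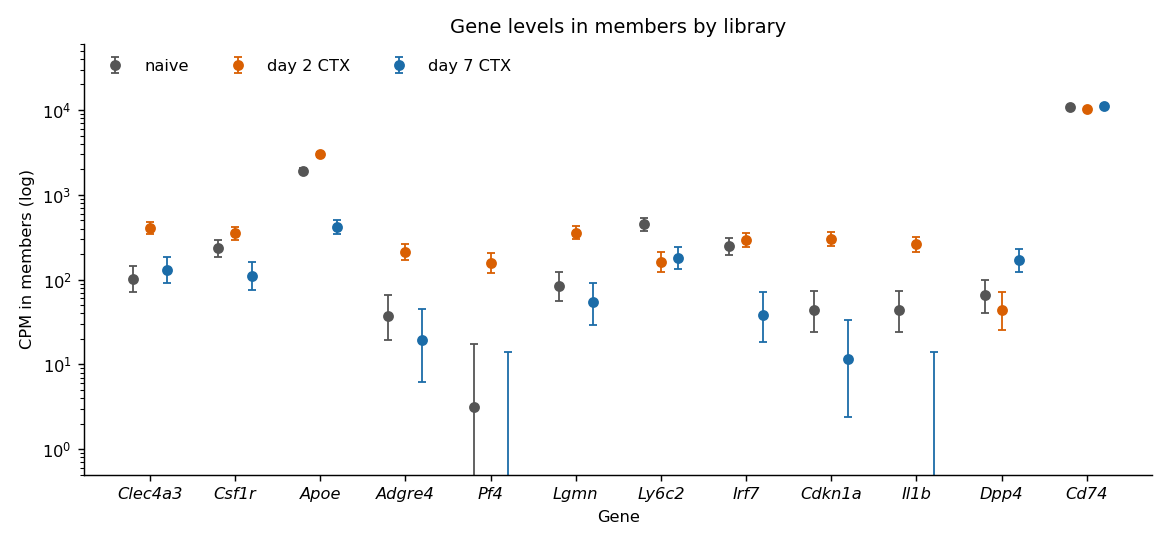
Levels (CPM, log axis) of 12 genes over all class II-rich myeloid cells of each library, with exact 95% counting intervals as bars. Csf1r, Apoe and Irf7 lie lowest on day 7, Clec4a3, Adgre4, Pf4, Lgmn, Cdkn1a and Il1b highest on day 2, and Cd74 is level; Pf4 and Il1b held 0 UMIs on day 7, so no point is drawn and the bar ends at the upper bound.

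Other populations place the class II-rich cells. Ly6c2 monocytes low in class II were 885 cells of the same libraries with at least 5 Ly6c2, 5 Lyz2 and 1 Csf1r UMIs, under 10 UMIs of the 3 class II genes and the other limits met. Fcgr1, which did not choose them, stood at 28.1 CPM in these monocytes, against 314 CPM in the Pf4 and 183 CPM in the nonclassical monocyte-like cluster. Cd209a stood at 5.55 CPM and Flt3 at 4.99 CPM in them. They also held 19021 CPM of S100a8. B lineage cells of the naive, D2 CTX and D7 CTX libraries held 9974, 19612 and 14136.5 CPM of it. The part of free RNA in the level of these monocytes was not tested. The 471 plasmacytoid cells, chosen by at least 3 Siglech UMIs and no Cd79a UMI, had a pDC list at 11671 CPM, against 313 to 499 CPM in the 5 clusters. In the sorted libraries the same limits found 24 of 1891 naive cells (1.27%, 0.815 to 1.88) and 4 of 2564 cells of CTX-treated mice (0.156%, 0.0425 to 0.399).

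The sort for CD11b and high Ly6C used proteins and would leave out most cDCs. The 24 cells found in sorted naive monocytes had Lyz2 at 40239 CPM, Ly6c2 at 686 CPM and Xcr1, Clec9a and Zbtb46 at 0. The Pf4 cluster held 730 CPM of Ly6c2, but it pools naive and D2 CTX cells. Over class II-rich cells outside the granule gene-rich cluster, Ly6c2 stood at 614 CPM in naive and 157 CPM on day 2. The sorted level was thus not compared with naive cells of the Pf4 cluster alone. The MHC class II pathway list of the 24 sorted cells summed to 17584 CPM, below the 39229 CPM of the pooled Pf4 cluster. The immediate early list, which responds to handling of cells as well as to stimuli, was at 22401 CPM in them against 3806 CPM in naive class II-rich cells of whole BM, so that the sorted and unsorted cells also differed in the genes of that response.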

How the data were processed

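Members, gene lists and comparisons were chosen with earlier results of these data known. RNA of single cells was measured with 10x 3′ V3 reagents, and the authors deposited raw UMI counts per gene and barcode, with Cell Ranger 3.1, Seurat 5.0 and mm10 named in the submitters' processing notes. The study describes more cells per library than the files hold barcodes, although its filter (200 genes, 20% mitochondrial UMIs) is the one used here.

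The members were scaled to 10000 UMIs, log transformed and clustered with 2000 variable genes, 20 components, 15 neighbours and Leiden resolution 0.8 (scanpy 1.11.5, Python 3.11.15), without integration. A cluster was named after a cell type only where its leading genes matched a marker list. Clusters 1 and 4 also had such matches and were called by their leading genes. Named genes were those of the limits, the lists, the 10 leading genes of a cluster and the 10 highest and lowest ratios to naive. Levels are summed UMIs as CPM, with exact Poisson intervals, and ratios add 1 CPM and have exact conditional intervals; shares have Clopper-Pearson intervals. Doublets came from Scrublet at 0.8% per 1000 barcodes; in D7 CTX BM, where its threshold marked under 0.5%, the cells of the highest scores were taken. They were kept in the main values. The steps were tested on simulated data. Alternatives were other limits, filters, resolutions, variable genes, centring, doublet removal, thinning, pseudocounts, scalings and averaging. Some genes of the lists are not reported here.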

Additional observations from a re-analysis of the deposited data

How the results depend on the processing

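Of the shares, divisions and gene counts recomputed under other settings, 99 kept their value and 22 moved, and of single genes 474 kept it, 52 moved and 3 reversed. The share of class II-rich cells on day 7 against naive moved to a log2 ratio of -1.50 with Lyz2-positive cells as the denominator. Clusters were put on a monocyte or a dendritic side by which lists (monocyte, nonclassical monocyte and macrophage, or cDC, cDC1 and cDC2) held more of their 10 leading genes. At resolution 0.4 the dendritic side held 21.4% (naive) and 46.9% (day 7), where a cluster of 39 cells led by Camp and Ngp was counted on neither side. That cluster (14 naive, 10 D2 CTX and 15 D7 CTX cells) was larger than the granule gene-rich cluster of 22 cells. No cluster was led by Clec9a at this resolution, so the cDC1-like cells had no cluster of their own on the dendritic side. At resolution 1.2 the monocyte side held 51.1% of D2 CTX cells, without a cluster of 11 cells led by Pf4 (2, 9 and 0 cells by library) that held no marker of either side. With components centred within libraries the monocyte side held 26.2%, 25.5% and 0% of naive, D2 CTX and D7 CTX cells, and the dendritic side 54.8% of naive and 44.7% of D2 CTX cells, since 1 mixed cluster led by Cd209a was counted there; a cluster of 9 cells led by Pf4 (2, 7 and 0) was on neither side, while the main Pf4 cluster was put on the monocyte side by Axl alone. Without doublets the monocyte side held 18.5% of D7 CTX cells. By list UMIs per cell the monocyte side held 88.1%, 89.4% and 78.1% and the dendritic side 11.9% of naive and 15.6% of D7 CTX cells. Without the granule gene-rich cluster, an alternative chosen after seeing the data, the monocyte side held 84.6% of D2 CTX and the dendritic side 96.0% of D7 CTX cells.

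With no filter on low genes 2710 genes were higher and 1558 lower on day 2, and 2006 higher and 1963 lower on day 7, because genes with few UMIs enter. The mean of the cells gave 31 genes higher on day 7. On day 7, Ccl3 reversed to -0.23 with the mean of the cells, Retnlg to -0.91 without doublets and Camp to 2.52 without the granule gene-rich cluster; the cause was not tested. No paired analysis was possible because each condition has 1 library. The 32 to 47 cells per library, and 1 pool of mice per condition, limit all shares and levels.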

Other observations

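Genes of other functions also differed between the clusters of class II-rich myeloid cells, again as a description. Klf4, a transcription factor of monocytes and cDC2 cells, stood at 435 CPM in the cDC2-like and 444 CPM in the nonclassical monocyte-like cluster, against 70 CPM in the Pf4 cluster. Cebpb, which supports nonclassical monocytes, stood at 1453 CPM in the nonclassical monocyte-like cluster, 730 CPM in the Pf4 cluster, 211 CPM in the cDC2-like cluster and 14 CPM in the cDC1-like cluster. Zeb2 stood at 1105, 1491, 829 and 42 CPM in these clusters. Naaa, a lipid amidase gene of cDC1 cells, stood at 757 CPM in the cDC1-like cluster and between 90 and 165 CPM in clusters 1, 2 and 3. Cd24a stood at 674 CPM in the cDC1-like and 372 CPM in the granule gene-rich cluster, which also held Clec9a (45 CPM, in 7 of 22 cells).

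Genes of migratory DCs were almost absent from the class II-rich myeloid cells. The migratory DC list of 8 genes summed to 9.16 CPM or less in all 5 clusters. Among the 62 cells that missed only the Lyz2 limit, 11 carried Ccr7, the receptor of migratory DCs, and 4 carried Xcr1.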
